A study of Mus musculus with 2 samples.

Results

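Colony-stimulating factors are the secreted proteins that set how many neutrophils, monocytes and macrophages are made, survive and are activated. The genes described here are the 4 ligands Csf1 (M-CSF), Csf2 (GM-CSF), Csf3 (G-CSF) and Il34 and the 4 receptor genes Csf1r, Csf3r, Csf2ra and Csf2rb, which is 8 of the 32285 genes in the tables. They were taken by gene symbol, with no use of their values. CSF1 and IL-34 share the receptor tyrosine kinase CSF1R, which macrophages need to survive. G-CSF acts through CSF3R, drives granulocyte precursors to become neutrophils and releases them from bone marrow. GM-CSF binds CSF2RA, which signals with the beta chain encoded by Csf2rb. The beta chain is shared with the IL-3 and IL-5 receptors, and mice carry a near copy of its gene, Csf2rb2. Pancreatic tumour cells are a known source of GM-CSF and G-CSF in mouse models, and both have been tied to myeloid cells in the tumour.

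The study profiled single cells of pancreatic tumours from KPPC mice, 6 weeks old, that had received either vehicle or 50 mg/kg takinib over 14 days. Takinib blocks TAK1, the kinase that relays IL-1, TNF and Toll-like receptor signals to NF-kappaB and MAP kinases. KPPC is a name used for a pancreatic cancer model in which Cre recombinase, among other changes, removes both copies of Trp53. The labels do not spell out the alleles or the Cre driver, and they do not say how many mice gave each library. Both groups carry these tumours, and no tumour-free pancreas was compared. There was 1 library per group, so no difference between treatments has a replicate check and no test was run. Intervals are 95% intervals that cover counting error only. Levels are counts of the gene's unique molecular identifiers (UMIs) per 1000000 UMIs of the class, written CPM, and none is compared between genes.

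The libraries differed in ways that touch every comparison. The vehicle table held unfiltered barcodes and gave 9558 kept cells, with a median of 3556 UMIs and 8.70% mitochondrial UMIs. The takinib table was already filtered at 500 UMIs and gave 25183 kept cells, with a median of 2887 UMIs and 1.79% mitochondrial UMIs. Of the kept cells, 359 barcode sequences occurred in both libraries. The vehicle library held 1075 cells with Xist alone and 3087 with Y-linked genes alone, while the takinib library held 14324 and 0, so treatment cannot be told apart from the sex of the mice and the handling of each library. Summed S100a8 and S100a9, the most abundant neutrophil transcripts, went from 96.8 to 8987 CPM in epithelial cells and from 763 to 42878 in B cells, so neutrophil RNA outside neutrophils was higher in the takinib library. Cells were clustered without the 8 genes and named from marker lists. Of 28 clusters, 4 kept no name and are called here by their leading genes. Several neutrophil clusters and the U90926/Saa3/F13a1 cluster came almost wholly from the takinib library, and such a cluster may mark that library and not a cell type.

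The 8 genes lie on separate chromosomes apart from Csf2 and Csf3 on chromosome 11. In GRCm38 coordinates Csf1 spans 107741048 to 107760469 of chromosome 3, Csf2 54247271 to 54249667 and Csf3 98701263 to 98703629 of chromosome 11, and Il34 110741829 to 110805924 of chromosome 8. Csf3r spans 126024550 to 126044440 of chromosome 4 and Csf2ra 61223957 to 61228429 of chromosome 19. Csf2 overlaps the antisense gene Gm12223 and Il34 overlaps Gm15894 and Gm15895. Whether the counting used strand is not given in the sources used here.

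Since takinib targets a kinase upstream of NF-kappaB, the RefSeq promoters (GRCm38.p6, 250 bases before to 50 after the start) were searched on both strands for the kappaB motif. Promoters were at hand for Csf1, Csf2, Csf2ra, Csf3r and Csf2rb2. Of these 5, Csf1 alone held a match, with its first base at position -154 from the start, and 1480 of 32851 promoters of the same length (4.51%) held one. The match is in capitals in this stretch of the minus strand, chr3:107760564-107760673, upstream of the Csf1 transcript start.
Csf1 promoter: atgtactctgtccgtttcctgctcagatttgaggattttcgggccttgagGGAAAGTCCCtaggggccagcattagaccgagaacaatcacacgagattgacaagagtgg
A match is a description of these letters and not evidence of binding.

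The second pair of sequences shows how alike the beta chain genes are, since this decides how far their UMIs can be kept apart. Csf2rb (chromosome 15, 78325752 to 78353847, plus strand) and Csf2rb2 (78282507 to 78305721, minus strand) agreed at 2505 of 2631 aligned coding bases, or 95.2%. The stretch from coding base 2548 to 2637, chr15:78349042-78349131 in Csf2rb and chr15:78284317-78284406 in Csf2rb2, lies in coding exon sequence, and its 7 mismatches are in capitals.
Csf2rb: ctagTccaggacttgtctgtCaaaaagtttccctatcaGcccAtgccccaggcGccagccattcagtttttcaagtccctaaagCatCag
Csf2rb2: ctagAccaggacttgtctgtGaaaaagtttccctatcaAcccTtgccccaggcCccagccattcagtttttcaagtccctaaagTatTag
Exact 90-base windows were shared by the transcripts for 8.43% of the positions of Csf2rb, and for 0% of its last 600 bases. Levels of Csf2rb and Csf2rb2 are therefore given apart, with the reservation that some reads may have been split between them.

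The question the ligands address is which cells held their transcripts, and how that sat beside the number of neutrophils and precursors. Mature neutrophils made up 259 of 9558 vehicle cells (2.71%) and 7243 of 25183 takinib cells (28.8%), a 10.6-fold higher share. The log2 ratio of this share was 3.41, and 7.25 in cells of at least 2000 UMIs and 5.99 in cells of at most 10% mitochondrial UMIs. Immature neutrophils, with secondary granule genes such as Ltf and Camp, were 8 vehicle cells (0.0837%) and 692 takinib cells (2.75%). Granulocyte-monocyte precursors, with Elane and Mpo, were 3 vehicle cells (0.0314%) and 249 takinib cells (0.989%). The Gm31814/Chil1/Ccl3 cluster, whose best score was also mature neutrophil, had 2 vehicle and 4162 takinib cells. Counted with it, the neutrophil lineage was 2.85% of vehicle and 49.0% of takinib cells. Macrophages took 50.1% and 15.3%, epithelial cells 17.8% and 7.39%. The share of cells is a share of what was captured, and the takinib table's own filter, at a lower depth, acted before these counts. Both libraries were then cut at 1000 UMIs, and vehicle neutrophils lay near that cut. At finer clustering, 240 of them shared a cluster with a median of 1211.5 UMIs. The vehicle share thus depends on the cut, and the number of vehicle neutrophils left at 2000 UMIs is not given here.

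Over all kept cells the ligands went in different directions between the libraries. Csf3 had 37 UMIs in vehicle and 3199 in takinib cells, 0.881 and 26.7 CPM, or 30.3-fold higher (22.0 to 43.2). Csf1 had 1105 and 7152 UMIs, 26.3 and 59.7 CPM, or 2.27-fold higher (2.13 to 2.42). Csf2 had 634 and 423 UMIs, 15.1 and 3.53 CPM, and Il34 had 600 and 248, 14.3 and 2.07 CPM. So both the neutrophil factor Csf3 and Csf1 were higher in the takinib library, and Csf2 and Il34 lower. With the neutrophil lineage left out, 9286 vehicle and 12837 takinib cells remained. Among them Csf3 stood at 0.889 and 17.9 CPM, still 20.2-fold higher (14.6 to 28.8). Csf1 was then 22.1 and 28.9 CPM, so most of its gap between the libraries lay in neutrophils. Csf2 was 15.2 and 4.28, and Il34 14.4 and 2.76 CPM.

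**Figure D1:**
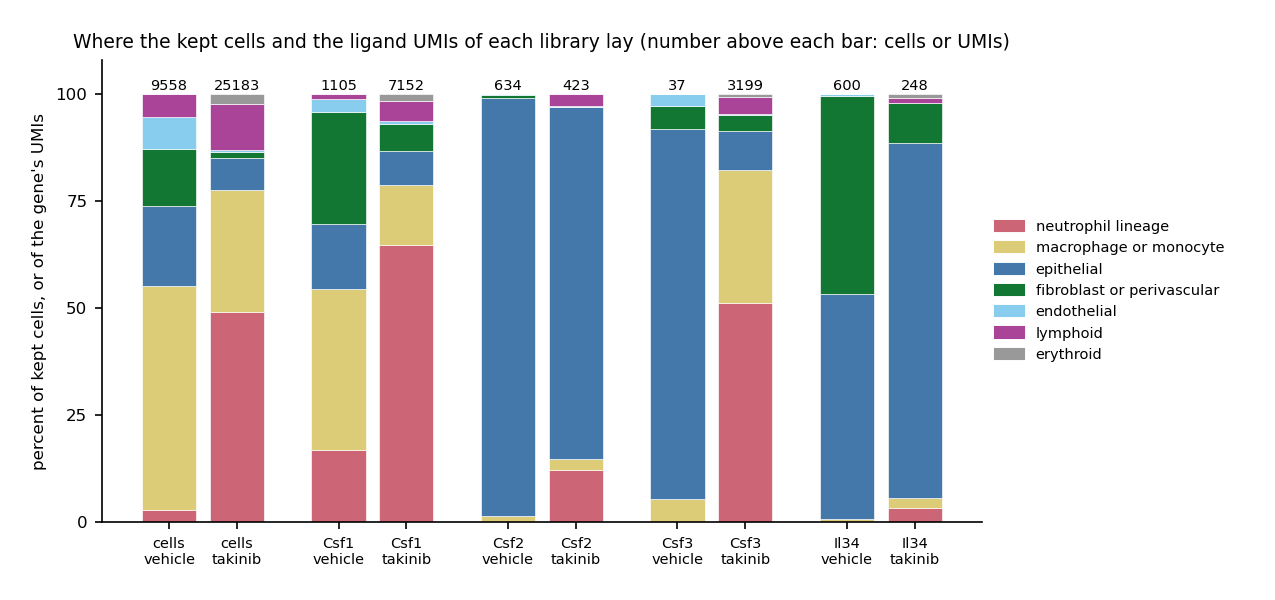
Stacked bars give the percent of kept cells, and of each ligand's UMIs, that lay in each of 7 broad groups of clusters, with vehicle on the left and takinib on the right of each pair and the number of cells or UMIs above each bar. Unnamed clusters were placed in the group of their best score. Neutrophil lineage cells held 16.9% of vehicle and 64.8% of takinib Csf1 UMIs, and 0 of 37 against 51.2% of Csf3 UMIs.

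Csf3, the ligand of the neutrophil receptor, had its few vehicle UMIs in tumour epithelium. Epithelial clusters held 32 of the 37 (86.5%, 71.2 to 95.5), macrophages and monocytes 2, and neutrophils 0 of 37. In the takinib library the neutrophil lineage held 51.2% of Csf3 UMIs, macrophages and monocytes 31.2%, epithelial cells 8.94% and fibroblasts with perivascular cells 3.78%. These groups take in the unnamed clusters by their best score. The 121 UMIs behind the 3.78% all lay in the Dcn/Serpinb2/Ptgis cluster. Of the 997 UMIs behind the 31.2%, 837 lay in the U90926/Saa3/F13a1 cluster. Thus the gene passed from a trace signal mostly in epithelium to one spread over several classes. The neutrophil lineage and the U90926/Saa3/F13a1 cluster came first. Named macrophages held 131 takinib UMIs and monocytes 8, fewer than the 286 in epithelial cells.

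Within takinib neutrophils Csf3 differed between clusters. It was highest at 87.9 CPM (82.1 to 94.0) in the Il23a/Ccl4/Acod1 cluster, which is rich in inflammatory chemokines. The Stfa2 cluster followed at 73.0 (63.2 to 83.9), then the Gm31814/Chil1/Ccl3 cluster at 58.0 (52.7 to 63.7) and the interferon-response cluster led by Gbp2 and Cxcl10 at 29.3 (21.2 to 39.7). The intervals of the first pair of clusters overlapped. The Cxcr2/G0s2/Il1r2 cluster, the one that also held 255 of the vehicle neutrophils, was lower at 12.5 (9.57 to 15.9), and immature neutrophils stood at 12.1 (8.71 to 16.5). Precursors held 9 UMIs, or 3.01 CPM. So the cells that G-CSF acts on during maturation had less Csf3 than the chemokine-rich mature clusters. In the Cxcr2/G0s2/Il1r2 cluster vehicle cells had 0 Csf3 UMIs, where 3 counts would be 9.12 CPM. Against those 3 counts the takinib level was at least 1.37-fold higher. Over all mature neutrophils it was 0 against 61.1 CPM, at least 6.79-fold higher, with a log2 ratio of 2.83 after adding 10 CPM to both. A log2 ratio of at least 1 either way, the size used here to call a gene, was reached by 23.7% of the 8913 genes tested in this class, and upward by 4.84%.

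Outside neutrophils, the U90926/Saa3/F13a1 cluster carried the most Csf3. It scored highest as macrophage with monocyte close behind, and also expressed Arg1. Its 2466 takinib cells held 837 Csf3 UMIs, or 52.8 CPM (49.3 to 56.5). The 298 cells with a UMI were 12.1% of the cluster, and 3.41% after each cell was thinned to 1000 UMIs. Cells with 3 or more UMIs numbered 96 and held 575 of the UMIs, with up to 28 in a cell. In erythroid cells, which should lack the gene, 3.06% had a UMI (1.44% thinned, median 4677 UMIs against 5842 in the cluster). At the ratio of Csf3 to S100a8 and S100a9 seen in takinib neutrophils, the S100 transcripts of the cluster would carry 66.9 Csf3 UMIs, and after that profile was subtracted the level was 52.6 CPM. The vehicle library had 9 cells in this cluster, too few for a comparison. The remaining macrophages were far lower, at 0.0962 and 4.68 CPM (2 and 131 UMIs), and by cluster in takinib between 1.51 (Ccl8/Cbr2/Cd163) and 7.92 (H2-M2/Mmp12/Gpnmb).

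In CPM, tumour epithelium and stroma held less Csf3 than the U90926/Saa3/F13a1 cluster. By broad group, takinib Csf3 UMIs per 1000 cells were in another order. They were 333 in fibroblasts with perivascular cells (counted with the Dcn/Serpinb2/Ptgis cluster) and 152 in epithelium. Macrophages with monocytes had 138 and the neutrophil lineage 133. In epithelial cells Csf3 was 2.80 and 13.4 CPM (32 and 286 UMIs), 4.78-fold higher in takinib (3.31 to 7.13). Its cluster led by Hmga2, Ppy and Cdkn2a went from 4.17 to 21.2 CPM, and the gastric-like Gkn3/Dmbt1/Tff2 cluster from 0.852 to 5.17. Cells with 3 or more UMIs were 0 in vehicle and 29 in takinib epithelium. The Dcn/Serpinb2/Ptgis cluster, which scored as fibroblast and mesothelial cells, had 2 UMIs in 259 vehicle cells and 121 in 294 takinib cells. These are 1.80 and 34.6 CPM, 19.2-fold (5.19 to 160), and 33.0 after the neutrophil profile was subtracted. Of the 121 UMIs, 93 lay in 14 cells. Fibroblasts and perivascular cells had 0 Csf3 UMIs in both libraries, with 55 and 14 takinib cells.

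Lymphoid and erythroid cells were measured for comparison. B cells had 0 and 69 Csf3 UMIs, T cells 0 and 45, and takinib erythroid cells 24. The neutrophil profile at their S100a8 and S100a9 levels would carry 52.9, 23.5 and 24.4 of these. In epithelial cells it would carry 79.3 of 286, and in the Dcn/Serpinb2/Ptgis cluster 13.8 of 121. The measured counts were thus near the profile in B and erythroid cells and above it in T cells. They were well above it in the U90926/Saa3/F13a1 cluster, epithelium and the Dcn/Serpinb2/Ptgis cluster. Macrophages held 131 against 65.1 and the unnamed Cd79a/Cd79b/Ighd cluster 21 against 1.51. Monocytes held 8 against 22.1, so the profile is only a rough guide.

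**Figure D2:**
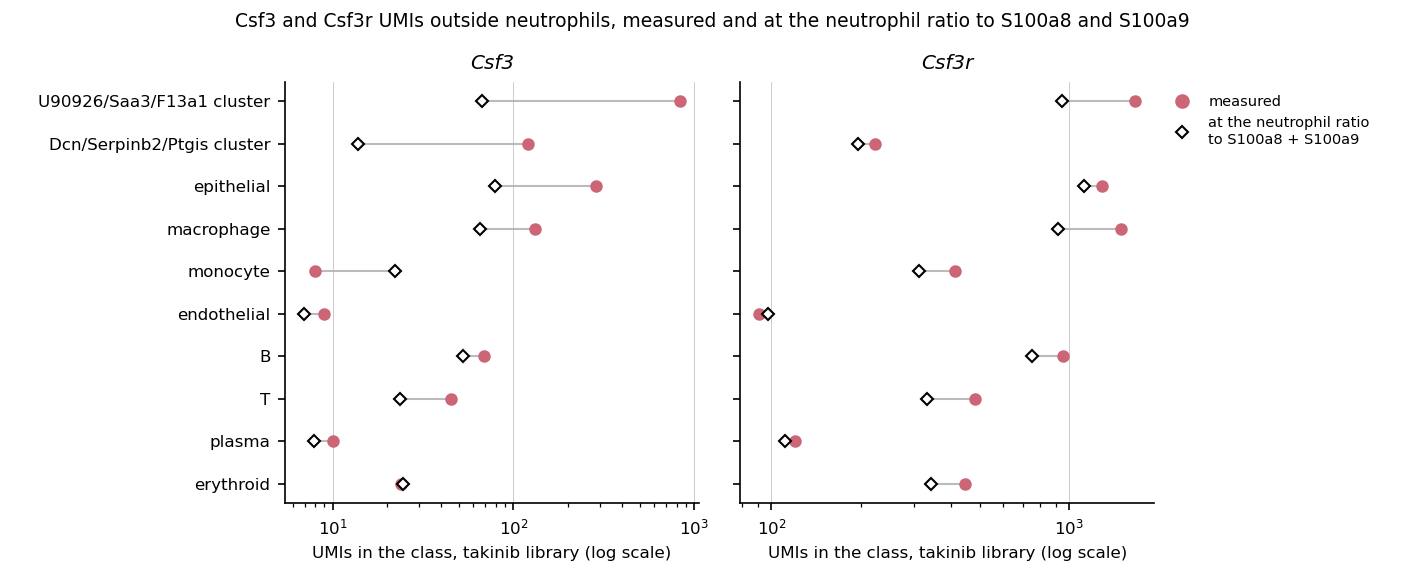
Filled points give the Csf3 and Csf3r UMIs of each takinib class outside neutrophils on a log axis, and open diamonds the UMIs its S100a8 and S100a9 transcripts would carry at the neutrophil ratio. Csf3 lies far to the right of its diamond in the U90926/Saa3/F13a1 cluster (837 against 66.9), while Csf3r lies close to it in most classes, such as epithelial cells (1285 against 1120).

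Csf1, which keeps macrophages alive through CSF1R, had its highest CPM in mature neutrophils of both libraries, among classes of at least 10 cells. In UMIs per cell the takinib order differed, with 430 Csf1 UMIs in the 294 cells of the Dcn/Serpinb2/Ptgis cluster and 3735 in the 7243 mature neutrophils. Mature neutrophils held 187 vehicle UMIs, 561 CPM (483 to 647), and 3735 takinib UMIs, 198 CPM (192 to 205). The log2 ratio was -1.46 (-1.66 to -1.24), beside 18.8% of all tested genes that were lower by this rule in neutrophils and a median gene at -0.43. Among vehicle neutrophils 40.2% had a UMI and among takinib neutrophils 24.5%, or 37.1% and 14.1% after thinning. The number of takinib neutrophils outweighed this, so the lineage held 16.9% of vehicle and 64.8% of takinib Csf1 UMIs. The value moved with the filters: it was -0.99 in cells of at least 2000 UMIs and -0.69 in cells with at most 10% mitochondrial UMIs.

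The takinib clusters differed in Csf1 as well. It was 234 CPM in the Il23a/Ccl4/Acod1 cluster, 196 in the Gbp2/Cxcl10/Rsad2 cluster and 185 in the Cxcr2/G0s2/Il1r2 cluster, where vehicle cells stood at 553. The last pair overlapped in their intervals. Lower levels were seen in the Gm31814/Chil1/Ccl3 (98.2) and Stfa2 (97.3) clusters, then immature neutrophils (34.9) and precursors (13.7). Csf1 was therefore higher at later stages of maturation in the takinib library. At finer clustering, 240 of the vehicle and 116 of the takinib neutrophils shared a cluster led by Siglecf, Mcpt1 and Csf1 itself. Siglecf encodes a sialic acid receptor known from eosinophils and from a tumour neutrophil state. In it Csf1 was 564 and 366 CPM, a log2 ratio of -0.61 (-1.04 to -0.20), and Siglecf 464 and 307. Takinib cells of the other mature neutrophil clusters of at least 100 cells had Siglecf between 6.45 and 65.6 CPM, while 15 vehicle cells in one of them, led by Cxcr2, Il1r2 and Ifitm1, had 8 UMIs, or 412 CPM. Most vehicle neutrophils thus fell in a cluster that held a small fraction of takinib neutrophils, and cells within it differed less in Csf1 than the whole class. Its median was 1211.5 UMIs in vehicle and 1256.5 in takinib cells. Whether this cluster marks a cell state, or the library and its depth, was not tested. That cluster was singled out after its genes were seen.

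Stromal cells came next for Csf1. The Dcn/Serpinb2/Ptgis cluster had 105 and 123 CPM, a log2 ratio of 0.21 (-0.06 to 0.49) whose interval spans 0. Fibroblasts had 76.6 in vehicle and 42.5 in 55 takinib cells (10 UMIs), with overlapping intervals. Endothelial cells had 16.2 and 74.0 CPM (35 and 52 UMIs), and 56.4 after the neutrophil profile was subtracted. Epithelial cells had 14.1 and 26.7, and 17.4 after subtraction. Macrophages, the cells that respond to it, had 19.6 and 23.5 CPM. B cells had 12.5 and 55.1, and 7.44 after subtraction, which is below the vehicle level. The broad shares, which take in the unnamed clusters, changed accordingly. They went from 37.5% to 14.1% of Csf1 UMIs in macrophages and monocytes and from 26.1% to 6.26% in fibroblasts and perivascular cells. The Dcn/Serpinb2/Ptgis cluster held 116 of the 288 vehicle and 430 of the 448 takinib UMIs of the latter group. Of the 1006 takinib UMIs of macrophages and monocytes, 270 lay in the U90926/Saa3/F13a1 cluster.

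Csf2 was an epithelial transcript in both libraries. Epithelial cells held 619 of 634 vehicle UMIs (97.6%, 96.1 to 98.7) and 348 of 423 takinib UMIs (82.3%, 78.3 to 85.8). Their level was 54.3 CPM (50.1 to 58.7) in vehicle and 16.3 (14.7 to 18.1) in takinib, a log2 ratio of -1.29 (-1.42 to -1.15). Downward calls made up 1.85% of the 12501 genes tested in epithelial cells. Nearly all of it lay in the Hmga2/Ppy/Cdkn2a cluster, the tumour epithelium low in gastric genes, with 616 and 328 UMIs, or 88.6 and 33.1 CPM. The Gkn3/Dmbt1/Tff2 cluster had 1 and 20 UMIs.

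Few cells carried most of the Csf2. In vehicle epithelium 70 cells with 3 or more UMIs held 522 of 619, with up to 43 in a cell. In takinib epithelium 35 such cells held 295 of 348, with up to 33 in a cell. Cells with a UMI were 8.70% and 4.14%, or 3.29% and 0.59% after thinning. Within the vehicle Hmga2/Ppy/Cdkn2a cluster, cells with Xist alone had 269 CPM (237 UMIs in 128 cells, 29 of them positive). Cells with Y-linked genes alone had 49.9 (205 UMIs in 517 cells), and takinib cells with Xist alone 33.8 (318 UMIs in 679 cells). The vehicle level was thus above the takinib level in either kind of cell, by an amount that differed several-fold between them.

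Csf2 outside epithelium was sparse. Takinib neutrophil lineage cells held 51 UMIs (12.1%), 29 of them in the Gm31814/Chil1/Ccl3 cluster at 3.85 CPM. The vehicle lineage held 0 of 634, and at its depth 3 counts would be 7.94 CPM. T cells, a textbook source of GM-CSF, had 0 vehicle and 12 takinib UMIs, where the neutrophil profile would carry 0.736. In vehicle T cells 3 counts would be 5.74 CPM, above the takinib level of 3.47, so no difference was detectable at this depth. Macrophages had 8 and 5 UMIs.

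Il34, the other CSF1R ligand, was shared by stroma and epithelium in vehicle. Perivascular cells were highest at 85.8 CPM (191 UMIs, 74.1 to 98.9), then fibroblasts at 40.8 (32.0 to 51.3), epithelial cells at 27.3 (24.4 to 30.6) and the Dcn/Serpinb2/Ptgis cluster at 11.7 (6.24 to 20.04). These 4 intervals did not overlap. In takinib the perivascular level was 120 CPM from 9 UMIs in 14 cells, 3 of them positive, and fibroblasts held 1 UMI in 55 cells. Epithelial cells stood at 9.57 CPM (204 UMIs, 8.30 to 11), a log2 ratio of -0.93 (-1.09 to -0.78), just short of the size used for a call. In the Hmga2/Ppy/Cdkn2a cluster Il34 was 37.5 and 13.9, and in the Gkn3/Dmbt1/Tff2 cluster 13.1 and 6.34 CPM. Vehicle cells of the first cluster had 38.6 with Xist alone and 38.7 with Y-linked genes alone, so the vehicle level was alike in both. Fibroblasts and perivascular cells, counted with the Dcn/Serpinb2/Ptgis cluster, held 46.2% of vehicle and 9.27% of takinib Il34 UMIs. That cluster held 13 of the group's 277 vehicle and 13 of its 23 takinib UMIs. Perivascular cells themselves were 584 vehicle and 14 takinib cells, and fewer cells and less RNA per cell cannot be told apart in the library total.

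**Figure D3:**
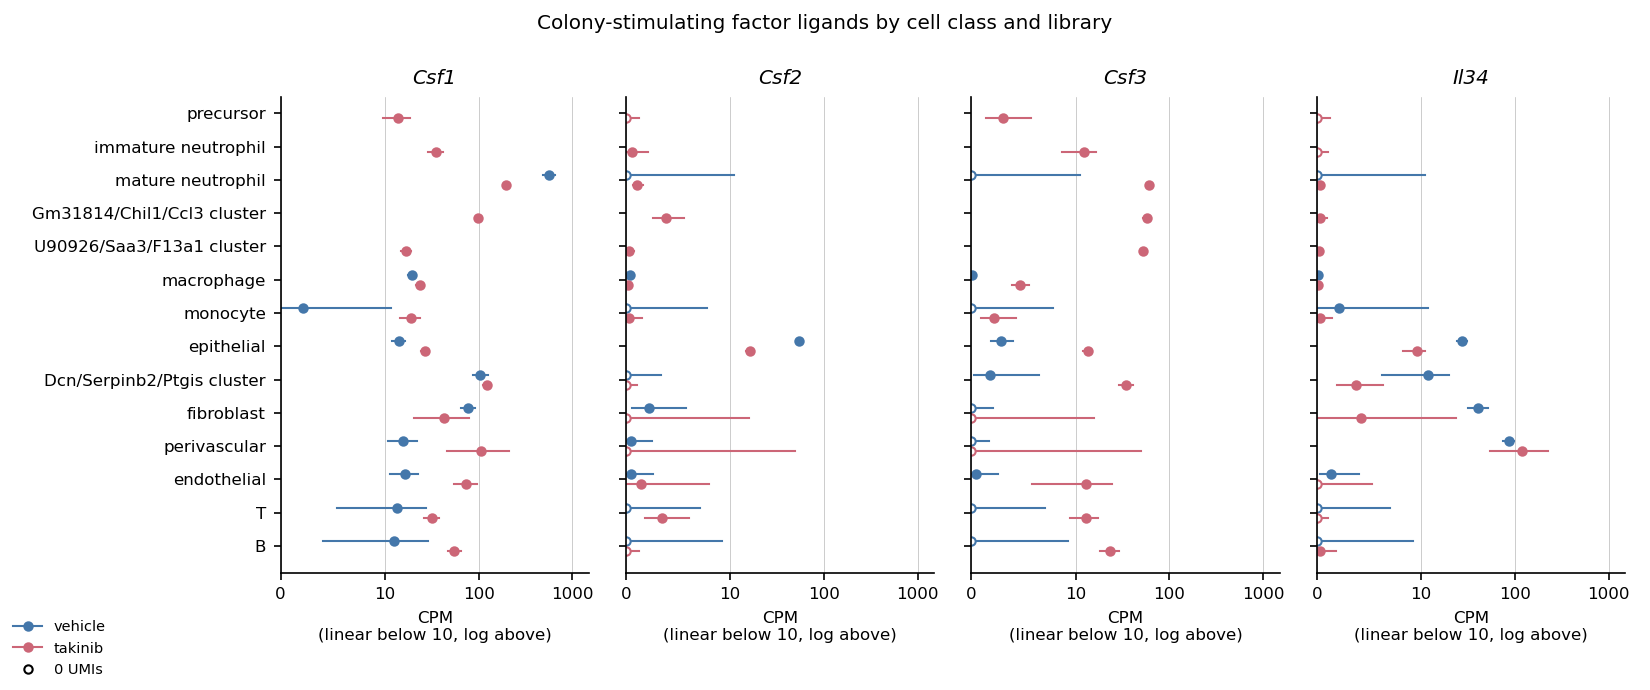
Points give the CPM of each ligand in 14 classes, with 95% counting intervals, for vehicle (blue) and takinib (red), open where no UMI was found and absent where the library had under 10 cells of the class; the axis is linear below 10 and logarithmic above. Csf1 lies highest in neutrophils of both libraries, Csf2 in epithelium, Il34 in perivascular cells, and Csf3 above 50 CPM in mature neutrophils and the Gm31814/Chil1/Ccl3 and U90926/Saa3/F13a1 clusters of the takinib library.

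The receptor Csf3r, which marks granulocytes, was highest in mature neutrophils. It had 217 vehicle UMIs, 651 CPM (567 to 743), and 16837 takinib UMIs, 893 CPM (880 to 907), a log2 ratio of 0.45. In the Cxcr2/G0s2/Il1r2 cluster it was 651 and 1109 CPM. Along the takinib lineage it was 107 CPM in precursors, 376 in immature and 893 in mature neutrophils, and these intervals did not overlap. It was 650 in the Gm31814/Chil1/Ccl3 cluster. The receptor gene was thus higher at each later stage of maturation, in the same order as Csf1. The ratio in mature neutrophils was larger, 1.82 and 1.20, in cells of at least 2000 UMIs and of at most 10% mitochondrial UMIs.

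Csf3r was also higher in every other compared class of the takinib library, and there it went with S100a8 and S100a9. In B cells it was 37.5 and 319 CPM and in epithelial cells 3.42 and 60.3. At the neutrophil ratio, the S100 transcripts would carry 746 of 949 Csf3r UMIs in B cells and 1120 of 1285 in epithelial cells. After subtraction epithelial cells stood at 8.29 CPM. Macrophages went from 34.3 to 53.2 CPM, and to 21.3 after subtraction, below vehicle. The U90926/Saa3/F13a1 cluster held 1666 UMIs, of which 944 would be so carried. Values of Csf3r outside granulocytes are therefore given beside the neutrophil profile. Over all cells Csf3r was 25.5 and 255 CPM, 10.0-fold higher, next to the 17.2-fold higher share of the neutrophil lineage.

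Csf1r stood at 521 CPM in vehicle macrophages (10824 UMIs, 511 to 531), the highest vehicle class of at least 100 cells, and at 338 in takinib macrophages (9453 UMIs, 331 to 344). In the takinib library it was higher in the U90926/Saa3/F13a1 cluster (601), the unnamed Cd79a/Cd79b/Ighd cluster of 109 cells (509) and monocytes (437). Between the libraries macrophages had a log2 ratio of -0.61 (-0.65 to -0.57). This mean hid different mixtures of macrophage clusters. The H2-Ab1/H2-Eb1/Dcstamp cluster, rich in MHC class II, had 3689 vehicle and 387 takinib cells with Csf1r at 584 and 532 CPM. The Ccl8/Cbr2/Cd163 cluster had 968 and 578 and the Car4/Chil3/Rnase2a cluster 263 and 231. The H2-M2/Mmp12/Gpnmb cluster stood at 288 in takinib. In the 3 clusters before the last, in this order, the log2 ratio was -0.13, -0.73 and -0.18. Against the vehicle macrophages with Xist alone, at 333 CPM, the class showed a log2 ratio of 0.020, within counting error of 0, while those with Y-linked genes alone had 557. When the U90926/Saa3/F13a1 cluster was counted as macrophage by its best score, the ratio was -0.26. Monocytes went the other way, 296 and 437 CPM, a log2 ratio of 0.55 (0.31 to 0.80), in a cluster that also held dendritic genes such as Ccr7 and Ccl22. At finer clustering, a cluster led by Ccl22, Ccr7 and Ctsk had 86 vehicle and 113 takinib cells, with Csf1r at 124 and 133 CPM. How many of these cells belonged to the monocyte class was not counted, so a different mixture may lie behind the monocyte ratio. Neutrophils had 135 and 133 CPM.

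The GM-CSF receptor chains were shared by macrophages, monocytes and granulocytes. Csf2ra was 256 and 198 CPM in macrophages, a log2 ratio of -0.35, 188 and 221 in monocytes, and 153 and 149 in mature neutrophils. Takinib precursors had 124 (112 to 138), immature neutrophils 131 (119 to 144) and mature neutrophils 149 (144 to 155), and the intervals of precursors and immature cells overlapped. Unlike Csf3r, it varied little along the lineage. Csf2rb was 304 and 251 CPM in macrophages, a log2 ratio of -0.26. In mature neutrophils it was 564 (486 to 650) and 368 (360 to 377), and along the takinib lineage 156, 240 and 368. Its near copy Csf2rb2 was 103 and 89.3 CPM in macrophages and 111 and 118 in neutrophils, and 141 in the U90926/Saa3/F13a1 cluster. None of the 4 receptor genes reached the size of a call in macrophages, where 2.53% of 11342 genes did.

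**Figure D4:**
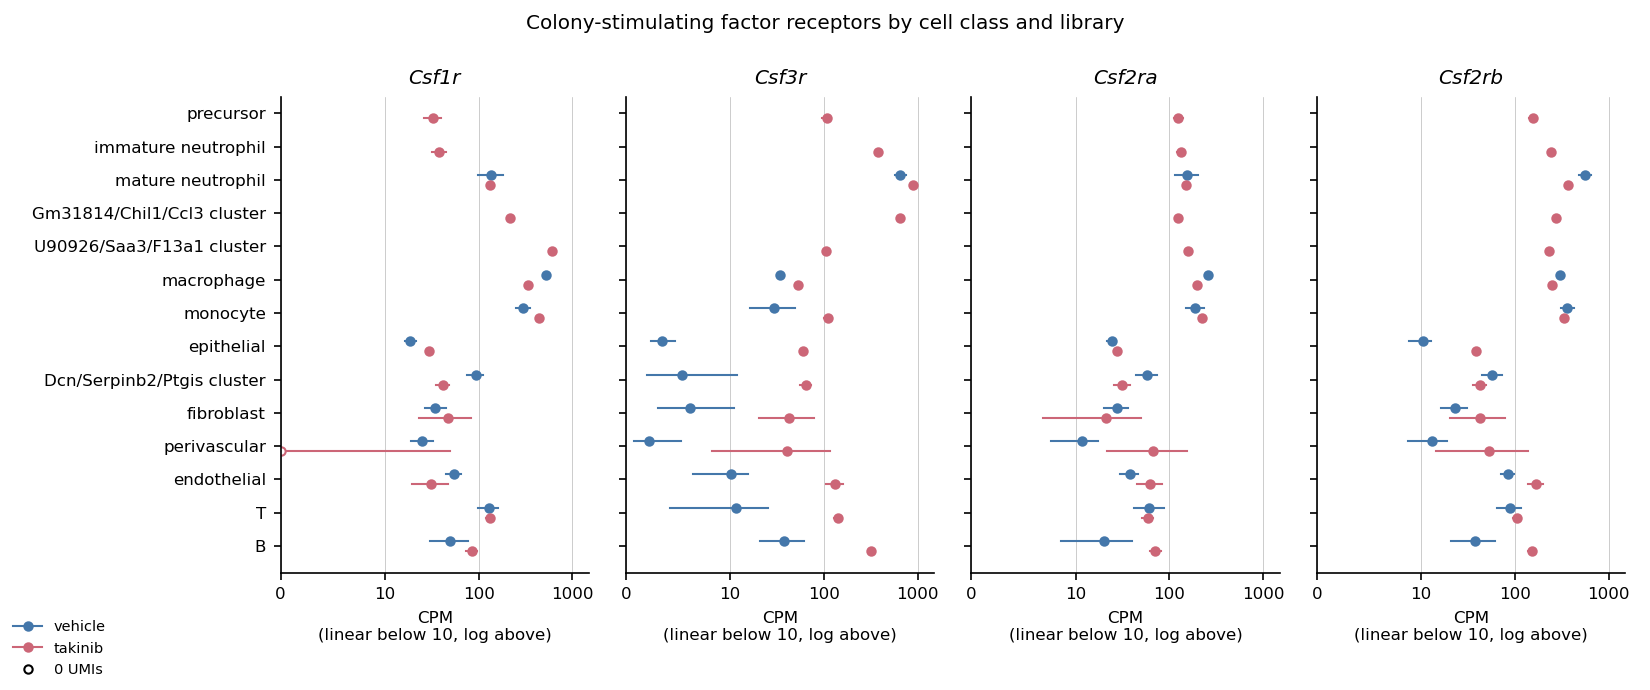
Points give the CPM of each receptor gene in 14 classes with 95% counting intervals, drawn as for the ligands, with the axis linear below 10 and logarithmic above. Csf3r climbs from 107 in precursors to 893 in mature takinib neutrophils, Csf1r reaches 521 in vehicle macrophages and 601 in the U90926/Saa3/F13a1 cluster of the takinib library, and Csf3r alone is shifted to higher levels in all non-granulocyte classes of the takinib library.

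Read over all classes, the size of a call was reached as follows, among members with 50 UMIs in either library of the class. In mature neutrophils 2 of 6 reached it, Csf3 upward and Csf1 downward, against 23.7% of genes. In epithelial cells 3 of 8 did, Csf3r and Csf2rb (10.6 and 38.6 CPM) upward and Csf2 downward, against 4.10%. After the neutrophil profile was subtracted, epithelial Csf2rb stood at 17.3 CPM. In the Dcn/Serpinb2/Ptgis cluster 3 of 6 did, Csf3 and Csf3r upward and Csf1r downward (92.8 and 41.4 CPM), against 7.92%. In B cells 5 of 6 did, all upward, against 13.2%, and in T cells 1 of 5, Csf3r, against 6.11%. After subtraction B-cell Csf1 stood at 7.44 CPM, below the 12.5 of vehicle. The other B-cell calls stayed above vehicle by less than before, such as Csf3 (8.03 with 0 in vehicle) and Csf2rb (66.6 with 37.5). B-cell calls were not made again on the subtracted levels. In endothelial cells 2 of 5 reached the size of a call, Csf1 and Csf3r, against 9.11%, and in monocytes the same pair, 2 of 5, against 8.88%. Monocyte Csf1 rested on 1 vehicle and 70 takinib UMIs, of which the neutrophil profile would carry 62.3. After subtraction monocyte Csf1 was 2.33 CPM, with 2.11 in vehicle. Csf3r is thus among the calls in each of the compared non-granulocyte classes apart from macrophages. At the neutrophil ratio, S100a8 and S100a9 transcripts would carry most of its UMIs in each of them. After subtraction Csf3r was still 49.6 CPM in T cells, with 11.5 in vehicle. It was 30.5 in monocytes, with 29.6 in vehicle, and 0 in endothelial cells, with 10.2 in vehicle. How much of Csf3r came from free neutrophil RNA was not tested. Members below 50 UMIs in both libraries of a class, such as Il34 in lymphocytes, were not counted there.

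Genes that induce the colony-stimulating factors were looked at in the same classes, from a list of 11 with IL-1, IL-17, TNF and their receptors. In epithelial cells 4 of the 9 tested were higher and 0 lower, with a median log2 ratio of 0.54 against -0.09 for all genes, of which 2.26% were higher. They included Il1b (25.5 and 712 CPM), Il1a (10.8 and 68.1), Il1rn (42.3 and 179) and Tnf (7.80 and 38.1), and S100a8 and S100a9 were higher in the same cells. Il1r1, the receptor through which IL-1 induces these factors in stroma and epithelium, was 9.12 and 17.7 CPM there, a log2 ratio of 0.54. In the Dcn/Serpinb2/Ptgis cluster 5 of 9 were higher and 0 lower, beside 4.62% of all genes, with Il1r1 at 73.0 and 208 CPM (log2 ratio 1.39, 1.10 to 1.70). In macrophages 0 of 8 were called, with Il1a at 69.8 and 140 and Il1b at 470 and 853 CPM. In mature neutrophils 0 of 7 were called, with Il1b at 5032 and 8433 CPM. The same list was higher in classes with more S100a8 and S100a9 UMIs: 6 of 7 in B cells (median log2 ratio 2.35), 6 of 9 in T cells (2.29), 4 of 8 in endothelial cells (1.43) and 4 of 7 in monocytes (1.05), beside 10.4%, 4.81%, 3.59% and 6.02% of all genes in that direction, with 0 lower. The takinib level of S100a8 and S100a9 was 14338 CPM or more in these 4 classes and 8987 in epithelial cells. How far the epithelial and stromal values come from free neutrophil RNA was not tested gene by gene.

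Genes acting below the receptors gave few calls in mature neutrophils and macrophages. Myeloid transcription factors were higher for 4 of 9 in B, 2 of 11 in T and 4 of 9 in endothelial cells. In monocytes 4 of 10 were. Beside these calls, 10.4%, 4.81%, 3.59% and 6.02% of all genes were higher, in classes with more S100a8 and S100a9 UMIs. Feedback genes were higher for 3 of 7 in endothelial cells. In the Dcn/Serpinb2/Ptgis cluster 1 of 9 transcription factors was higher and 3 were lower. In mature neutrophils 2 of 18 signalling genes were lower, the Janus kinase Tyk2 (45.0 and 10.3 CPM) and the adaptor Shc1 (51.0 and 17.2). Their median was -0.12 against -0.43 for all genes. Of the feedback genes, which dampen cytokine signals, 3 of 12 were lower: Cish (231 and 78.7), Socs1 (69.0 and 25.9) and Dok2 (27.0 and 6.90). Among myeloid transcription factors 3 of 11 were lower: Cebpe, needed for late granulocyte maturation (51.0 and 8.06), Runx1 (423 and 125) and Cebpd (270 and 123). With 18.8% of all genes lower in neutrophils, these counts are near the background. In macrophages 0 of 18 signalling, 0 of 12 feedback and 0 of 11 transcription factor genes were called. There Cish was 43.3 and 20.6, Socs3 281 and 179, Klf4 98.7 and 191 and Cebpd 145 and 74.3 CPM. In epithelial cells 2 of 18 signalling, 2 of 12 feedback and 3 of 11 transcription factor genes were higher, beside 2.26% of all genes. Of the feedback genes, Pim1 (30.6 and 159), a STAT target kinase, and Socs3 (36.4 and 106) were higher. Socs2 (93.1 and 32.7) was lower, beside 1.85% of all genes.

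Among related growth factors and receptors, 0 of 6 tested in neutrophils and 0 of 6 in macrophages were called. Cxcr4, which holds neutrophils in bone marrow, was 243 and 151 CPM in mature neutrophils, a log2 ratio of -0.65. Kit, the stem cell factor receptor, was 12 and 21.3 there. In macrophages Il3ra, the partner of the beta chain for IL-3, was 18.9 and 32.9 CPM. Cxcl12, the ligand of CXCR4, was 278 and 542 CPM in the Dcn/Serpinb2/Ptgis cluster, a log2 ratio of 0.94 (0.77 to 1.11).

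The patterns of the ligands over classes were set beside those of other genes, over 25 sums of at least 100 cells each, taken by class and library. These points share libraries, depth and free RNA, and the correlations describe them only. Csf3 was most like Saa1, an acute-phase gene, with Pearson's r of 0.93, Sod2 (0.90) and Bnip3 (0.89). Csf2 was most like Krt17, a keratin of basal-like tumour epithelium, at 0.98. Il34 was most like Kctd15 at 0.97 and Csf1 like Igfbp6 at 0.81. Of the receptors, Csf3r was most like Il1r2 (0.98), Csf1r like the Fc receptor gene Fcgr2b (0.95), Csf2ra like Cyba (0.94) and Csf2rb like Tyrobp (0.96). For Csf2rb the second in order was Csf2rb2 at 0.93.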

How the data were processed

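Tumours were dissociated with collagenase and DNase and made into 10x libraries, per the labels' protocols. The authors deposited unnormalized UMI counts for every gene in every barcode. Headers name Cell Ranger 4 (vehicle) and 6.1.1 (takinib), while the submitters' processing notes list Cell Ranger 2.1.1, STAR 2.0.4b, featureCounts 1.45 and mm10. Cells with at least 1000 UMIs, 500 genes and at most 20% mitochondrial UMIs were kept. Scrublet removed 314 vehicle cells. In takinib its threshold marked 0.00373%, so the highest-scoring 6% (1607) were removed. Scanpy 1.11.5 clustered cells on 2000 variable genes without the 8 genes (30 components, 15 neighbours, Leiden resolution 1, seed 1). A cluster took the marker list it scored highest for, if at least 3 markers were detected, the next list scored under 0.75 of it and its leading 10 genes did not favour another class. These scoring cut-offs, not the markers, were set after clusters were seen. Counts were summed per class and library. Log2 ratios add 10 CPM, for classes with 100 cells in each library and genes with 50 UMIs in either. A call is 1 or more either way. Intervals are exact Poisson, combined for ratios, or Clopper-Pearson. Interval and floor (3 counts) calculations were tested on simulated data. Thinning took 1000 UMIs a cell. The genes and lists were chosen with earlier results of these data known. Named genes are the 8, Csf2rb2, and up to 4 per list with the largest ratios; 1 higher call in the signalling list is not reported here. Alternatives were other cell filters, resolutions, naming, pseudocount, doublet handling, thinning, scaling and vehicle cells with Xist alone.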

Additional observations from a re-analysis of the deposited data

Results flagged for a closer look

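At the main settings Csf1 went in opposite directions in different classes by at least 1 on the log2 scale. In mature neutrophils its log2 ratio of takinib to vehicle was -1.46 (561 and 198 CPM), and in endothelial cells it was 1.68 (16.2 and 74.0 CPM, from 35 and 52 UMIs in 717 and 103 cells). The endothelial level was 56.4 CPM after the neutrophil profile was subtracted. The neutrophil ratio fell short of 1 in size under some settings. It was -0.99 in cells of at least 2000 UMIs and -0.69 with at most 10% mitochondrial UMIs. In the Siglecf/Mcpt1/Csf1 cluster it was -0.61. With 1 library per group the difference between these classes was not tested.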

How the results depend on the processing

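Over 15 results (the log2 ratio of each of the 8 genes in its main class, the takinib source share of each ligand and the shares of 3 neutrophil stages) 131 alternative values were computed, and 83 stayed within the counting interval of the reported value. The 48 that moved did not reverse a called direction, but in some of them Csf1 in neutrophils fell short of the size of a call. In cells of at least 2000 UMIs and 1000 genes, the log2 ratio in neutrophils was -0.99 for Csf1 and 1.82 for Csf3r, the share of takinib UMIs in mature neutrophils 40.5% for Csf1 and 26.6% for Csf3, that of Csf2 in epithelium 89.2%, and the log2 ratio of cell share 7.25 for mature and 6.96 for immature neutrophils. With at most 10% mitochondrial UMIs, it was -0.69 for Csf1, 1.20 for Csf3r, -1.43 for Csf2, -0.53 for Csf1r and 5.99 for the mature neutrophil share. Against vehicle cells with Xist alone, it was -1.67 for Csf1, -2.83 for Csf2, -1.13 for Il34, 0.020 for Csf1r, 1.02 for Csf3r, -0.28 for Csf2ra, -0.10 for Csf2rb and 4.95 for the mature neutrophil share. With 1 CPM added in place of 10, it was -1.67 for Csf2, 5.96 for Csf3 and -1.42 for Il34. With the median gene set to 0, neutrophil ratios were -1.03 for Csf1, 3.26 for Csf3 and 0.88 for Csf3r. With cells thinned to 1000 UMIs, ratios were -1.89 for Csf2, -1.30 for Il34, -0.52 for Csf1r, -0.42 for Csf2ra and -0.33 for Csf2rb. With the 8 genes allowed in clustering, ratios were -0.26 for Csf1r, -0.47 for Csf2ra, -0.51 for Csf2rb and 3.22 for the mature neutrophil share, and mature neutrophils held 33.8% of Csf3. At resolution 2, the Csf1r ratio was -0.57 and source shares 53.7% for Csf1, 37.8% for Csf3 and 65.7% for Il34. Without doublet removal, neutrophils held 48.5% of Csf1 and 33.9% of Csf3. With clusters named by best score alone, chosen after seeing the data, they held 62.6% and 49.6%, ratios were -0.26 for Csf1r and -0.46 for Csf2ra, and the mature neutrophil share 4.05. Over haematopoietic cells it was 2.83. The cause of these moves was not tested. Vehicle cells with Xist alone gave no value for immature neutrophils and precursors. No paired analysis was possible because each group had 1 library. Depth limits Csf3 and Csf2 in vehicle neutrophils, T and B cells, where counts were 0.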
